A study of Mus musculus with 2 samples.

Results

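Early-anagen cells of the melanocyte lineage that carried the transcript of *Oca2*, a late pigmentation gene, while they also carried transcripts of a dividing cell were examined. They were selected on transcript counts in the single-cell RNA sequencing library of activated melanocyte stem cells (McSCs). A unique molecular identifier (UMI) marks 1 captured transcript molecule. Cells had to hold more than 10000 UMIs, less than 5% mitochondrial UMIs, at least 1 UMI of the melanocyte gene *Dct* and fewer than 3 UMIs of the keratins *Krt10* and *Krt14*. Among them, the selected cells held at least 1 UMI of *Oca2* and at least 2 UMIs of *Mki67* and *Top2a* together. These limits left 136 *Oca2*+ cycling cells of 2785 cells past the filter (4.88%, 4.11 to 5.75), of 11010 barcodes in the library and of 15337 barcodes in the 2 libraries used here. The comparison group was the 850 cycling cells of the same filter without an *Oca2* UMI, called *Oca2*- here, which is a statement about detection only.

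The cells were sorted for GFP from the skin of mice that carried Dct-rtTA and tetO-H2B-GFP, in which the *Dct* promoter drives the doxycycline-dependent activator that switches on histone-bound GFP, so that the sort itself depended on *Dct* activity. Early-anagen cells came from 4 mice, pooled into 1 library, whose hair was plucked at 8 weeks of age and whose skin was taken 4 days later, after 4 days on doxycycline food. A second library held mature melanocytes of the hair bulb from 4 pooled mice of the same genotype at 5 weeks of age, made with version 2 of the droplet kit instead of version 3. Each condition was 1 library, so no test across animals was possible, and intervals in parentheses are 95% limits that cover counting error only. The 2 libraries shared 1 barcode.

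McSCs are the unpigmented stem cells of the melanocyte lineage in the hair follicle. When a new hair starts to grow they divide and give rise to transit-amplifying cells, and their progeny in the hair bulb make melanin and pass it to the hair. Melanin is made by *Tyr*, *Tyrp1* and *Dct* on fibrils of *Pmel* inside melanosomes, whose pH and ion content depend on membrane transporters such as those encoded by *Oca2*, *Slc45a2* and *Slc24a5*. *Mki67* and *Top2a* encode a coat protein of mitotic chromosomes and the DNA topoisomerase of dividing cells.

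*Oca2* lies on chromosome 7 of the mouse from 56239760 to 56536518, and *Trpm1*, a cation channel gene transcribed by MITF in melanocytes, lies on the same chromosome from 64153835 to 64269775 (GRCm38, plus strand for both). Their promoters, 250 bases before to 50 after the transcription start (RefSeq, GRCm38.p6), are shown because both genes set the cells apart, with the promoter of *Ccnb1*, a mitotic cyclin, as an example of a cell cycle gene. Capitals mark matches, on either strand, to the M-box TCATGTG and the E-box CACGTG, both of the kind bound by MITF, to the cell cycle element CHR TTTGAA and to the CCAAT box CCAAT. No match of one motif is also a match of another. *Trpm1* had 2 starts in the table.
Oca2, chr7:56239509-56239808, plus strand: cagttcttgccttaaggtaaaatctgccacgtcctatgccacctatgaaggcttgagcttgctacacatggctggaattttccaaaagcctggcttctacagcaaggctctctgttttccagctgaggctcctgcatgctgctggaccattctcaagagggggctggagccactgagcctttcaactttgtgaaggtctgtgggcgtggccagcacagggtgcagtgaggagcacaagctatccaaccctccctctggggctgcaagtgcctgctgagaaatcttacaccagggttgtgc
Trpm1, chr7:64153585-64153884, plus strand: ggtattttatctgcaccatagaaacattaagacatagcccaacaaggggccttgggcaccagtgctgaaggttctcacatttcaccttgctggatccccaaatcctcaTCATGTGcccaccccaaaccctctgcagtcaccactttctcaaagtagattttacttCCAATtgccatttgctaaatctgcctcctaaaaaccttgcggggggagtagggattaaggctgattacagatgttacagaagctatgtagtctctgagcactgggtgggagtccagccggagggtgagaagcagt
Trpm1, chr7:64185209-64185508, plus strand: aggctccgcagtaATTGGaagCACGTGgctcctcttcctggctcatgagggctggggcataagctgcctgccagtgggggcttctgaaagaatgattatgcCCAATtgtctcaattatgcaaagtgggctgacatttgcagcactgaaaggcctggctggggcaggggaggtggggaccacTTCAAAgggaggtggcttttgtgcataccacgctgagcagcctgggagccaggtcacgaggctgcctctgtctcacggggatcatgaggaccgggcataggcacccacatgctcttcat
Ccnb1, chr13:100786437-100786736, minus strand: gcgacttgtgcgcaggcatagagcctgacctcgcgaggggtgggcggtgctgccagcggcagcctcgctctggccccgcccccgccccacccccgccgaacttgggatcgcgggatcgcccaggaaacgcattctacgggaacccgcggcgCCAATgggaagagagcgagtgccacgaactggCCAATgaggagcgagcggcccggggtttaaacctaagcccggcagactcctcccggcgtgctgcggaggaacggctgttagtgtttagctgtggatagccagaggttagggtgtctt

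The first *Trpm1* promoter held 1 M-box and 1 CCAAT box, the second 1 E-box, 1 CHR element and 2 CCAAT boxes, and the *Ccnb1* promoter 2 CCAAT boxes. None of the 4 motifs was found in the *Oca2* window, which says only that these letters are not in these 300 bases. Of the 28 pigment genes with a promoter in the table, of 34 in the list used below, 5 (17.9%) held the M-box and 10 (35.7%) the E-box, against 4.31% and 8.09% of all 27025 genes. Of 47 of the 56 listed G2/M genes, 32 (68.1%) held the CHR element and 36 (76.6%) a CCAAT box, against 20.2% and 41.1% of all genes. Over single promoters, the shares of all 32851 were 3.77% for the M-box, 7.15% for the E-box, 17.9% for the CHR element and 37.4% for the CCAAT box.

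The genes used for the selection are given as a description. *Oca2* was found with exactly 1 UMI in 56 of the 136 cells, with 2 in 31, with 3 in 17 and with 4 or more in 32, up to 23 in 1 cell. *Mki67* and *Top2a* together had a median of 11 UMIs per cell, with 26 cells at the minimum of 2 and a maximum of 148, and 95 cells (69.9%) held both genes. *Oca2*+ cycling cells had a median of 37027 UMIs (10843 to 99743), and *Oca2*- cycling cells had a median of 35622 (10336 to 88988). Because detection depends on depth, 10000 UMIs were drawn at random from every cell (thinning) for all levels below, given as CPM, a gene's share of the UMIs of a group scaled so that all genes sum to 1000000. In thinned cells, *Oca2* was at 80.9 CPM in the *Oca2*+ cycling cells, *Mki67* at 254 CPM against 275 CPM in *Oca2*- cycling cells, and *Top2a* at 376 CPM against 448 CPM. At that depth, 67 of the 136 cells still showed *Oca2* and 91 still showed at least 2 UMIs of *Mki67* and *Top2a*.

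At the edge of the limits, the 8 cells with 1 *Oca2* UMI and exactly 2 *Mki67* or *Top2a* UMIs had *Trpm1* at 1550 CPM and the 34 pigment genes at 29888 CPM in sum. Just outside, the 47 *Oca2*+ cells with 1 UMI of *Mki67* or *Top2a* had 1970 CPM and 32947 CPM. The 96 cells with exactly 2 UMIs of the cycling genes and no *Oca2* had 509 CPM and 18809 CPM.

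*Oca2* was found in 136 of 986 cycling cells (13.8%, 11.7 to 16.1). It was found in 271 of 1523 cells without a UMI of *Mki67* or *Top2a* (17.8%, 15.9 to 19.8), although these were sequenced less deeply. Such cells are called non-cycling or outside the cycle here, a label that rests on these genes only. Medians were 25915 UMIs in *Oca2*+ and 18411 UMIs in *Oca2*- non-cycling cells. For the next shares, only *Oca2* was called from 10000 UMIs per cell, and cells stayed grouped by all their UMIs of the cycling genes. *Oca2* was then detected in 12.8% (11.2 to 14.6) of cells with no UMI of the cycling genes, in 11.9% (8.34 to 16.3) of cells with 2 to 4, in 4.02% (1.63 to 8.11) of cells with 5 to 9, in 6.84% (3.00 to 13.0) of cells with 10 to 19 and in 4.55% (2.76 to 7.01) of cells with 20 or more. From all UMIs of a cell the last 3 shares were 11.5% (7.16 to 17.2), 14.5% (8.70 to 22.2) and 12.7% (9.64 to 16.3), whose intervals overlap that of the non-cycling cells. These shares use the genes of the selection and are a description only. As a background, *Oca2* was found in 1 of 77 cells of the library with epidermal keratins (1.30%, 0.0329 to 7.02), at a median of 32936 UMIs. The share of cycling cells with *Oca2* was 8.60% when 2 *Oca2* UMIs were required and 5.76% when both calls were made after thinning.

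**Figure D1:**
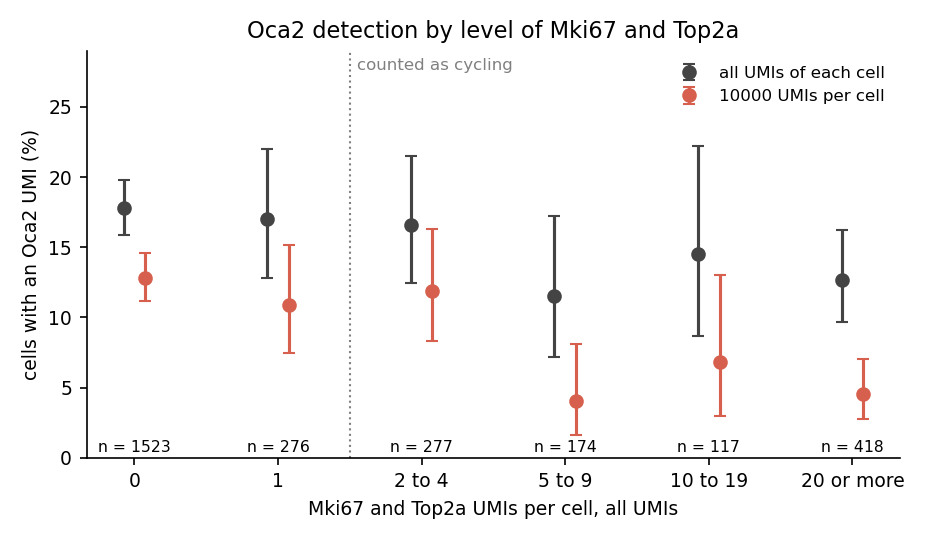
Share of early-anagen cells with an *Oca2* UMI (vertical axis, percent) by the UMIs of *Mki67* and *Top2a* per cell (horizontal axis, from all UMIs). *Oca2* was called from all UMIs of a cell (grey) or 10000 UMIs per cell (red). Bars are 95% Clopper-Pearson intervals, and n is the number of cells. The red share is 12.8% in cells with 0 such UMIs and 4.55% in cells with 20 or more, and the grey share is 17.8% and 12.7%.

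The labels call the library McSCs. *Dct*, which the sort and the filter required, was at 9166 CPM, and the other 7 melanocyte markers (*Tyrp1*, *Pmel*, *Mlana*, *Mitf*, *Sox10*, *Kit*, *Tyr*) were all present, at 21326 CPM in sum against 13884 CPM in *Oca2*- cycling cells, with *Mlana* the most abundant. Of 15 keratinocyte markers, 11 had a UMI, at 90.4 CPM in sum against 74.5 CPM, with *Lgals7* highest at 39.0 CPM and *Dsp*, *Trp63*, *Dsc3* and *Col17a1* at 0. The filter itself held *Krt10* and *Krt14* low, and the other 13 came to 75 CPM against 59.3 CPM. Of 6 Schwann cell markers, 4 had a UMI, and *Mbp* and *Ncmap* were at 0. The 8 fibroblast markers summed to 23.5 CPM against 27.4 CPM, almost all *Postn* (20.6 CPM), with *Col3a1*, *Dpt*, *Pdgfra*, *Dcn* and *Lum* at 0. Markers of immune cells came to 6.62 CPM (4 of 10, *Lyz2* highest, *Ptprc* and *Cd3e* at 0) against 8.47 CPM. Those of hair follicle epithelium came to 3.68 CPM (3 of 10, *Krt6a* highest, *Lgr5* and *Cd34* at 0) against 9.53 CPM. The summed log2 ratio of the latter was -1.37 (-3.04 to -0.09). Red cell markers came to 1.47 CPM (1 of 4, *Hbb-bs*) against 1.06 CPM. Endothelial cells and muscle or pericytes were at 0.735 CPM each (1 of 5 in both, *Kdr* and *Tagln*, with *Pecam1* and *Acta2* at 0). The 4 Merkel cell markers *Atoh1*, *Krt20*, *Krt8* and *Krt18* were at 0, which allows up to 2.21 CPM for each. The part of other cell types in the results below was not tested.

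Pigment genes were higher in *Oca2*+ than in *Oca2*- cycling cells. The list held 34 genes other than *Oca2* and *Dct*, and 28 had a log2 ratio above 0 and 5 below. Of all 12351 genes with UMIs in both groups, 6741 lay above 0 and 5578 below. The median log2 ratio was 0.51, against 0.04 over all genes with UMIs in both groups. For 18 genes the interval lay above 0, and for 0 it lay below, as against 7.17% and 5.51% of all 12351 genes with UMIs in both groups. Of 20 pigment genes that reached 50 CPM in one or both groups, 11 were at least 1.5-fold higher and 0 at least 1.5-fold lower, where 3.38% of all 3109 genes of that level were 1.5-fold higher and 1.38% were 1.5-fold lower. In sum, pigment genes made up 26174 CPM (25906 to 26443) and 16496 CPM (16411 to 16582). In single cells of 10000 UMIs the lowest, median and highest sums were 91, 258.5 and 436 UMIs in *Oca2*+ cycling cells and 37, 160 and 438 UMIs in *Oca2*- cycling cells, so the groups overlapped over most of their range.

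**Figure D2:**
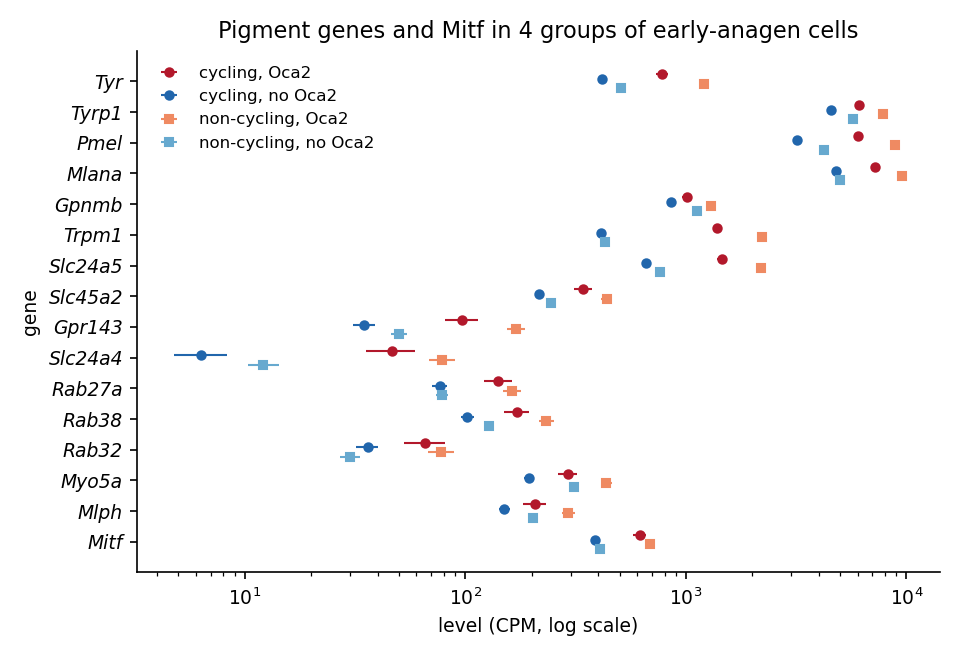
Levels of 15 pigment genes and *Mitf* (vertical axis) in CPM on a log scale (horizontal axis) in *Oca2*+ (red) and *Oca2*- (blue) cycling cells (circles) and in *Oca2*+ (orange) and *Oca2*- (light blue) non-cycling cells (squares), each over 10000 UMIs per cell, with 95% counting intervals. *Oca2*+ cycling cells lie above *Oca2*- cycling cells for each gene shown and below *Oca2*+ non-cycling cells, *Trpm1* for example at 1382, 414 and 2210 CPM.

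Among the enzymes and the matrix of the melanosome, *Pmel*, the fibril protein, was at 6050 CPM (5920 to 6182) in *Oca2*+ cycling cells and 3175 CPM (3138 to 3213) in *Oca2*- cycling cells. *Tyr*, the rate-limiting enzyme of melanin synthesis, was at 782 CPM (735 to 830) against 418 CPM (404 to 432). Both were higher beyond counting error, with log2 ratios of 0.93 (0.89 to 0.97) and 0.90. *Mlana*, which takes part in melanosome maturation, had a log2 ratio of 0.59 (0.56 to 0.63) and *Tyrp1*, an enzyme of late melanin synthesis, of 0.41 (0.37 to 0.44). *Gpnmb*, a melanosome glycoprotein, differed least in this group, with 0.23 (0.15 to 0.31).

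Transporters and receptors of the pigment pathway showed the widest split. *Trpm1* was at 1382 CPM (1320 to 1445) in *Oca2*+ cycling cells and 414 CPM (400 to 428) in *Oca2*- cycling cells, a log2 ratio of 1.74 (1.66 to 1.82). It was found in 95.6% of the *Oca2*+ and 75.5% of the *Oca2*- cycling cells after thinning, and in 15.6% (8.32 to 25.6) of the 77 cells with epidermal keratins. In single *Oca2*+ cycling cells its lowest, median and highest values were 0, 13 and 47 UMIs, against 0, 3 and 41 UMIs, which overlap. *Slc24a5*, a cation exchanger needed for melanin formation, was at 1450 CPM against 662 CPM, a log2 ratio of 1.13 (1.06 to 1.20). *Gpr143*, a melanosomal receptor that limits organelle size, had a log2 ratio of 1.47 (1.16 to 1.77), and *Slc45a2*, which raises melanosome pH, had 0.66 (0.51 to 0.81). *Slc24a4*, another cation exchanger, was at 46.3 CPM (35.6 to 59.3) against 6.35 CPM (4.77 to 8.29), with a log2 ratio of 2.87 (2.32 to 3.42). The endolysosomal channel gene *Mcoln3* was at 201 CPM against 197 CPM and the copper pump gene *Atp7a* at 21.3 CPM against 19.3 CPM, with intervals of the ratio that included 0 for both.

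Genes of melanosome sorting and transport differed less, with a median log2 ratio of 0.42 over 20 genes, of which 8 had an interval above 0 (7.17% of all genes). *Rab27a*, *Rab32* and *Rab38*, small GTPases of melanosome transport and cargo delivery, had log2 ratios of 0.89 (0.65 to 1.12), 0.86 (0.50 to 1.21) and 0.74 (0.52 to 0.95). *Myo5a*, the motor that RAB27A recruits, was at 291 CPM against 194 CPM, and *Mlph*, the linker between them, was at 206 CPM against 150 CPM. Subunits of the BLOC-1 sorting complex lay around 0, with *Bloc1s1* at 0.21 (-0.09 to 0.50), *Bloc1s2* at -0.07 (-0.50 to 0.33) and *Dtnbp1* at 0.03 (-0.18 to 0.22).

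**Figure D3:**
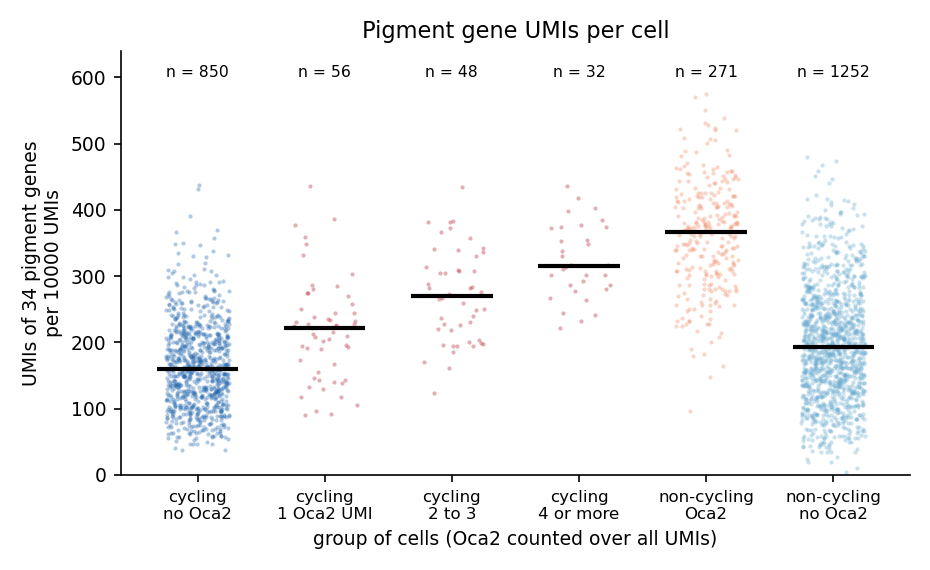
UMIs of 34 pigment genes per cell after thinning to 10000 UMIs (vertical axis), 1 point per cell, by group and, for cycling cells with *Oca2*, by their *Oca2* UMIs over all UMIs (horizontal axis), with black lines at the medians and n cells per column. The medians of the cycling groups are 160, 222, 270 and 314.5 UMIs from left to right, and 366 and 192.5 UMIs in non-cycling cells with and without *Oca2*.

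Among transcription factors of the lineage, *Mitf*, the regulator of pigment genes, was at 617 CPM (576 to 660) in *Oca2*+ and 387 CPM (374 to 401) in *Oca2*- cycling cells, a log2 ratio of 0.67 (0.56 to 0.78). *Sox10* and *Pax3*, which act upstream of it, were at 118 CPM against 108 CPM and at 357 CPM against 365 CPM, with intervals that included 0. The inhibitors of DNA binding, targets of BMP signalling that hold back helix-loop-helix factors, stood out in this list. *Id1* was at 74.3 CPM (60.5 to 90.2) against 17.2 CPM (14.5 to 20.2), *Id2* at 479 CPM (443 to 517) against 162 CPM (153 to 171) and *Id3* at 656 CPM (614 to 700) against 292 CPM (281 to 304). Their log2 ratios were 2.11 (1.73 to 2.49), 1.56 (1.43 to 1.70) and 1.17 (1.05 to 1.28). One cell held 17.8% of the *Id1* UMIs of the *Oca2*+ cycling cells, and without the top cell of each group the ratio was 2.07. Over all alternatives it ran from 1.14, without any *Krt10* or *Krt14* UMI, to 2.66. *Irf4*, a partner of MITF at *Tyr*, had 0.90 (0.38 to 1.39).

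Of 18 receptors for niche signals, 9 lay on each side of 0, with a median log2 ratio of -0.06, but 5 intervals lay above 0 and 1 below (7.17% and 5.51% of all genes). Their summed log2 ratio was 0.38 (0.31 to 0.44), of the opposite sign to the median, and the 6 of at least 50 CPM had a median of 0.48. *Met*, the receptor of hepatocyte growth factor, was at 146 CPM against 68.7 CPM (log2 ratio 1.09, 0.85 to 1.33), *Ednrb*, the receptor of endothelins, at 863 CPM against 532 CPM (0.70, 0.61 to 0.79) and *Mc1r*, the receptor of melanocortin, at 121 CPM against 81.5 CPM (0.57, 0.32 to 0.82). *Erbb3*, a receptor of neuregulin, was lower, at 36.0 CPM against 61.2 CPM (-0.76, -1.22 to -0.34). *Kit*, the receptor of stem cell factor, was at 496 CPM against 456 CPM, with an upper limit of the log2 ratio of 0.24 and a lower limit just under 0.

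Of 16 genes that WNT signalling switches on or that feed back on it, 10 had UMIs in both groups and 4 of them lay above 0 beyond counting error (7.17% of all genes). *Lef1*, a WNT transcription factor, had a log2 ratio of 1.06 (0.47 to 1.62), *Sp5*, a WNT target, of 0.95 (0.26 to 1.60) and the feedback inhibitors *Nkd1* and *Axin2* of 0.87 (0.46 to 1.26) and 0.61 (0.22 to 0.97). These were low genes, from 19.1 CPM for *Sp5* to 55.1 CPM for *Axin2* in *Oca2*+ cycling cells, and the ratio of *Sp5* turned to -0.31 under a mitochondrial limit of 3%. The feedback genes *Nkd2*, *Znrf3* and *Kremen1* had ratios of -0.40, -0.44 and -0.45 with intervals that included 0. *Wif1* and *Notum*, both inhibitors of WNT, were at 1.47 and 0.735 CPM, too low for a direction. The median of the list was 0.74, and its summed log2 ratio was 0.41 (0.22 to 0.58). The median was 0.40 among genes of at least 10 CPM and 0.47 with another seed of the thinning. It was 0.13 under a mitochondrial limit of 3% and 0.34 without cells over 60000 UMIs.

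Genes enriched in stem cells (*Col12a1*, *Cdh1*, *Txnip*, *Hspa1a*, *Cd9*, *Sept4*) were lower in *Oca2*+ cycling cells for 5 of 6 genes, with a median log2 ratio of -0.37. Of all 12351 genes with UMIs in both groups, 5578 lay below 0. For 4 of the 6 the interval lay below 0 (5.51% of all genes). *Cd9*, a tetraspanin, was at 518 CPM (480 to 557) against 685 CPM (668 to 703), and *Col12a1*, a fibril-associated collagen, at 164 CPM against 213 CPM. The heat shock gene *Hspa1a* was at 263 CPM against 237 CPM, an interval of -0.01 to 0.31. These 6 genes come from the study's own comparison of bulb melanocytes with telogen McSCs. That comparison did not split cells by *Oca2*. The study describes such genes as shared by telogen and early-anagen McSCs and lower in bulb melanocytes. It also reports that *Oca2*+ McSCs of early anagen kept expressing such genes, unlike *Oca2*+ melanocytes of the bulb. This library took part in both descriptions, so the direction of the 6 genes is not taken as independent evidence. Their summed level in cycling cells was 1234 CPM with *Oca2* against 1476 CPM without it, so lower but not absent. Another 5 genes were known from an earlier split of this library to be lower in *Oca2*+ cells, so their direction is not independent evidence either. They had a median of -1.16. Among them, *Apod*, a lipid-binding lipocalin, was at 49.3 CPM (38.2 to 62.6) against 169 CPM (160 to 178). Its log2 ratio was -1.78 (-2.15 to -1.42), and -2.76 to -1.17 over the alternatives. *Capn6* (-1.36), *Fxyd5* (-1.16), *Cd200* (-1.05) and *Cavin3* (-0.99) followed.

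Cell cycle genes were slightly lower in *Oca2*+ cycling cells, in a direction that changed under some alternatives given below. Of 43 S-phase genes, 36 had a log2 ratio below 0, with a median of -0.14. Of 54 G2/M genes without *Mki67* and *Top2a*, 43 lay below 0, with a median of -0.16. Among all 12351 genes with UMIs in both groups, 5578 lay below 0. Intervals lay below 0 for 5 S-phase and 9 G2/M genes and above 0 for 1 of each list (5.51% and 7.17% of all genes). The summed log2 ratios were -0.16 (-0.20 to -0.11) and -0.18 (-0.21 to -0.14). None of the 25 S-phase and 35 G2/M genes of at least 50 CPM was 1.5-fold higher or lower, beside 3.38% and 1.38% of all genes of that level. *Pcna*, the replication clamp, was at 318 CPM against 355 CPM and *Rrm2*, a ribonucleotide reductase subunit, at 157 CPM against 160 CPM. *Cdk1*, the mitotic kinase, was at 152 CPM against 192 CPM (-0.33, -0.55 to -0.12), and the chromatin protein gene *Hmgb2* at 936 CPM against 1226 CPM (-0.39, -0.47 to -0.31). *Ccnb1* was at 95.6 CPM against 85.9 CPM, an interval of -0.13 to 0.43. The medians turned to 0.04 and 0.01 when *Oca2*- cycling cells were weighted to the phases of the *Oca2*+ cycling cells, a step that moves them towards 0 by construction because the phases were scored from these genes. The direction of the G2/M median also changed under other limits, to 0.02 with at least 5 UMIs of *Mki67* and *Top2a* and to 0.08 under a mitochondrial limit of 3%, and that of the S-phase median to 0.02 with both calls made after thinning. In cells scored in S or G2/M alone, the medians were 0.03 and 0.05. Of 19 cyclins and inhibitors of their kinases, 4 intervals lay below 0 and 2 above, with a median log2 ratio of -0.13 and a summed one of 0.05 (-0.0055 to 0.11). Among the D-type cyclins of G1, *Ccnd1* was at 40.4 CPM against 66.0 CPM (-0.71, -1.13 to -0.31) and *Ccnd3* at 68.4 CPM against 107 CPM (-0.65, -0.98 to -0.34), whereas *Ccnd2* was at 111 CPM against 97.5 CPM (-0.07 to 0.44). The intervals of the E-type cyclins *Ccne1* and *Ccne2* held 0. *Cdk2*, which lies beside *Pmel* in the genome, was at 418 CPM against 302 CPM (0.47, 0.34 to 0.60).

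Phases scored from these S and G2/M genes placed 52 of the 136 *Oca2*+ cycling cells in S (38.2%, 30.04 to 46.9), 54 in G2/M (39.7%, 31.4 to 48.4) and 30 in G1 (22.1%, 15.4 to 29.97). In the *Oca2*- cycling cells, 70 of 850 were placed in G1 (8.24%, 6.48 to 10.3). The label of cycling cells therefore does not hold by this score for those 30 cells. Their G2/M genes, which enter the score, summed to 1253 CPM, nearer to the 985 CPM of *Oca2*+ non-cycling cells than to the 11880 CPM of those scored in G2/M. Their share of pigment transcripts was the highest of the 3 phases. Pigment genes were at 33320 CPM against 23467 CPM in cells scored in S and 24809 CPM in G2/M. *Trpm1* was at 2170 CPM against 1050 CPM and 1263 CPM. Median depths were 30062 UMIs in G1, 38522.5 UMIs in S and 41663.5 UMIs in G2/M. Pigment UMIs per whole cell were not compared between phases. With cells scored in S or G2/M only, 106 *Oca2*+ and 780 *Oca2*- cells, the median log2 ratio of the pigment genes was 0.40 and that of the G2/M genes was 0.05.

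**Figure D4:**
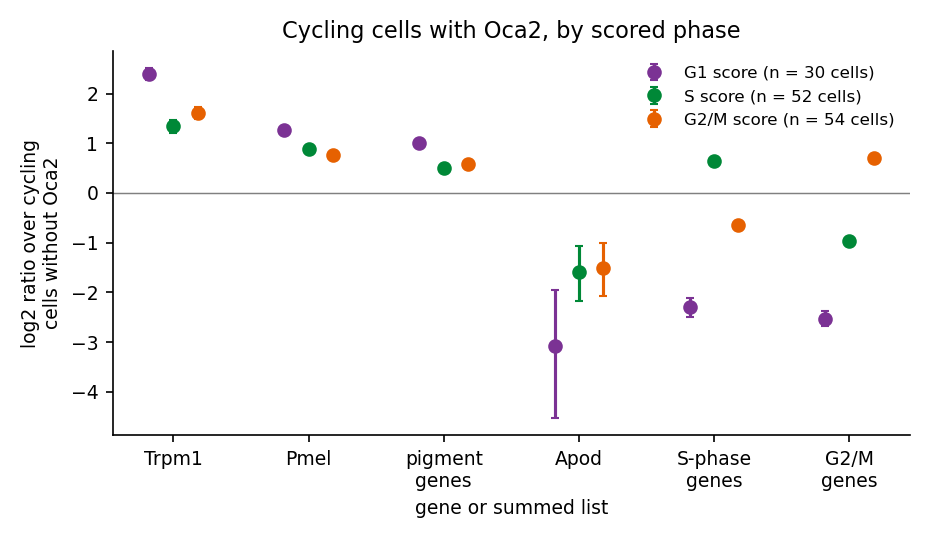
Log2 ratio of *Oca2*+ cycling cells scored in G1 (purple, 30 cells), S (green, 52 cells) or G2/M (orange, 54 cells) over all 850 *Oca2*- cycling cells (vertical axis) for 3 genes and 3 summed lists (horizontal axis), with 95% counting intervals. Pigment genes lie above 0 in all phases, at 1.01, 0.51 and 0.59, and G2/M genes, from which the phases were scored together with S-phase genes, at -2.53, -0.96 and 0.71.

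Within the *Oca2*+ cycling cells, the levels of pigment genes varied with the number of *Oca2* UMIs. The splits by *Oca2* and by *Mki67* and *Top2a* use the counts that chose the cells, so their values are a description only. The 56 cells with 1 UMI, the 48 with 2 or 3 and the 32 with 4 or more had median depths of 38359.5, 36515.5 and 37193 UMIs. Pigment genes summed to 21900, 27110 and 32247 CPM in these cells, and *Trpm1* was at 925 CPM (847 to 1008), 1396 CPM (1292 to 1506) and 2159 CPM (2002 to 2326). *Apod* went the other way, from 83.9 CPM (61.7 to 112) to 35.4 CPM (20.6 to 56.7) and 9.38 CPM (1.93 to 27.4). Cells with 4 or more *Oca2* UMIs also had the lowest G2/M genes, 4878 CPM against 6500 CPM and 7340 CPM. By *Mki67* and *Top2a*, pigment genes came to 29998 CPM in the 46 cells with 2 to 4 UMIs, 25346 CPM in the 37 with 5 to 19 and 23432 CPM in the 53 with 20 or more, which were also the deepest, with a median of 48331 UMIs. Across the 136 thinned cells, pigment UMIs and S-phase UMIs had a Pearson r of -0.42 and a Spearman rho of -0.46, and pigment UMIs and those of the 5 genes led by *Apod* had -0.47 and -0.41. The values were weaker for pigment UMIs with G2/M UMIs (-0.20 and -0.35), with those of *Mki67* and *Top2a* (-0.21 and -0.31) and with depth (-0.24 and -0.27). In the 850 *Oca2*- cycling cells they were -0.27 and -0.28 with S-phase UMIs and -0.38 and -0.44 with the 5 genes. Cells of 1 library are not replicates, and UMIs of a cell with a fixed total compete for that total.

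The 15 genes with the largest ratios towards *Oca2*+ cycling cells, among genes of at least 50 CPM, included *Trpm1*, *Gpr143*, *Id1* and *Id2*. *Pde10a*, a phosphodiesterase of cyclic nucleotides, led with 55.1 CPM (43.4 to 69.1) against 10.4 CPM (8.30 to 12.8), a log2 ratio of 2.41 (1.95 to 2.87), and 1.58 to 2.78 over the alternatives. Others were the membrane proteins *Tspan10* (1.31) and *Tspan5* (1.19), the γ-secretase subunit *Aph1c* (1.30), the acid sphingomyelinase *Smpd1* (1.30), the semaphorin and VEGF coreceptor *Nrp1* (1.27), the actin regulator *Eps8* (1.23), *Scrn1* (1.45) and the calcium-binding alarmin *S100a8* (1.38). The secreted factors *Npy*, a neuropeptide, and *Cxcl14*, a chemokine, had 1.22 and 1.21. One cell held 13.4% of the *Npy* UMIs of the *Oca2*+ cycling cells, and its ratio was 1.07 without the top cells.

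In the other direction, genes of the interferon response and of antigen presentation were lower in *Oca2*+ cycling cells. Of 16 such genes, 15 had a ratio below 0, as had 5578 of all 12351 genes with UMIs in both groups. For 11 the interval lay below 0 (5.51% of all genes), and the median log2 ratio was -0.61. Of the 10 that reached 50 CPM in one or both groups, 5 were at least 1.5-fold lower (1.38% of all genes taken by the same rule). Some, such as *H2-Q7*, reached that level in *Oca2*- cycling cells only. *Ifitm3*, an antiviral membrane protein, was at 164 CPM (143 to 187) against 297 CPM (285 to 309), the class I gene *H2-Q7* at 42.6 CPM against 84.1 CPM and the immunoproteasome subunit *Psmb8* at 62.5 CPM against 95.9 CPM, whereas *B2m*, the class I light chain, was at 1683 CPM against 1829 CPM (-0.12, -0.18 to -0.06). The interferon-induced genes *Gbp2* (-1.86, with -2.35 to -0.67 over the alternatives), *Cxcl10* (-1.26) and *Cxcl9* (-4.34) were among the 15 lowest ratios. These genes too reached 50 CPM in *Oca2*- cycling cells only. *Cxcl9* had UMIs in few cells, 3.68% of the *Oca2*+ and 2.59% of the *Oca2*- cycling cells, so the share of cells did not follow its ratio, and 1 *Oca2*- cell held 20.4% of the UMIs of that group. *Cxcl10* had UMIs in 19.1% and 21.5%, with 13.4% of the UMIs of the *Oca2*- group in 1 cell. The rest of the 15 were *Apod*, *Capn6* and *Cavin3*, the tubulin gene *Tubb2b* (-1.13), the secretory granule gene *Ica1* (-1.13), the actin-capping gene *Capg* (-1.07), the small heat shock protein gene *Hspb1* (-1.01), the condensin gene *Ncapg2* (-0.98, but 0.013 under a mitochondrial limit of 3%), the transferrin gene *Trf* (-0.90) and the annexin gene *Anxa1*, at 446 CPM against 833 CPM (-0.90, -1.02 to -0.78).

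General expression programs had median log2 ratios between -0.10 and 0.06. The 20 ribosomal protein genes were all below 0, with 16 intervals below 0, 0 above and a median of -0.10, where intervals of all genes lay below 0 for 5.51% and above 0 for 7.17%. The 12 heat shock genes had a median of 0.02 but 4 intervals below 0 and 0 above, and a summed log2 ratio of -0.12 (-0.15 to -0.09). Medians were -0.04 for 16 immediate early genes (6 intervals below 0, 3 above), 0.06 for 20 genes of oxidative phosphorylation (2 below, 4 above), -0.03 for 16 of glycolysis (2 below, 4 above) and -0.10 for 11 feedback genes of ERK signalling (2 below, 1 above). The summed log2 ratios of glycolysis, 0.09 (0.06 to 0.13), and of the ERK feedback genes, 0.0052 (-0.08 to 0.09), had the opposite sign to their medians, as for heat shock genes. The median mitochondrial share was 3.16% in *Oca2*+ and 2.72% in *Oca2*- cycling cells, and 3.53% and 3.19% in non-cycling cells. Under a limit of 3%, which kept 54 *Oca2*+ and 529 *Oca2*- cycling cells, the share with *Oca2* was 9.26% and the median ratio of pigment genes was 0.60. Without cells over 60000 UMIs it was also 0.60, over 123 *Oca2*+ cycling cells. No doublet caller was run, and the part of doublets was not tested.

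The same split was made outside the cycle, in 271 *Oca2*+ and 1252 *Oca2*- cells with no UMI of *Mki67* or *Top2a*. By the phase score, 19 of the 271 (7.01%) and 149 of the 1252 (11.9%) were placed in S. In G2/M there were 0 and 18 (1.44%), so the label does not hold by this score for all of these cells. In this split, pigment genes had a median log2 ratio of 0.70, with 25 of 34 intervals above 0 and 2 below. Of all 13139 genes with UMIs in both groups, the shares were 14.2% and 10.3%. At the level of at least 50 CPM, 5.66% of 3041 genes were at least 1.5-fold higher and 3.98% at least 1.5-fold lower in *Oca2*+ cells. Across 3098 genes, which are not independent, the log2 ratios inside and outside the cycle had a Pearson r of 0.71 and a Spearman rho of 0.63, and 2228 had the same sign. Of 104 genes other than *Oca2* that were at least 1.5-fold higher in *Oca2*+ cycling cells, 84 were also 1.5-fold higher outside the cycle. Of 43 lower genes, 29 were also 1.5-fold lower there. All 30 genes with the largest ratios lay on the same side of 0 outside the cycle.

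**Figure D5:**
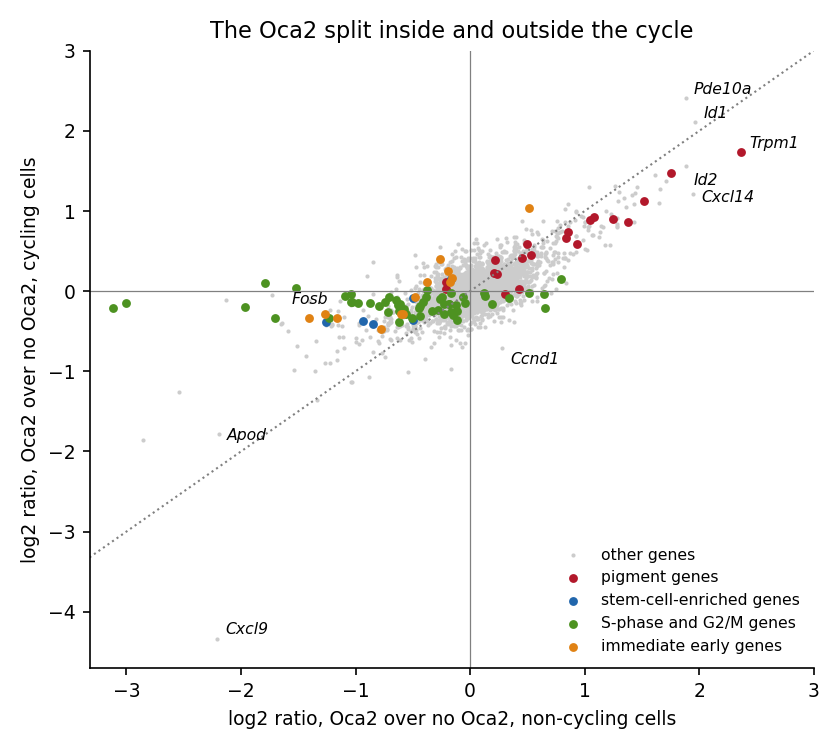
Log2 ratio of *Oca2*+ over *Oca2*- cells among non-cycling (horizontal axis) and cycling (vertical axis) early-anagen cells for genes of at least 50 CPM in either cycling group, with gene lists in colour and equal ratios on the dotted line. Pigment genes (red) lie in the upper right, with *Trpm1* at 2.37 and 1.74, and immediate early genes such as *Fosb* (orange) lie lower outside the cycle, at -1.41 against -0.34.

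The split was narrower inside the cycle for the pigment and the stem cell genes. The difference of the log2 ratios, cycling minus non-cycling, had a median of -0.15 over 34 pigment genes, with an interval below 0 for 10 and above 0 for 1, as against 4.68% and 5.38% of 11825 genes. It was -0.63 (-0.73 to -0.53) for *Trpm1*, -0.34 for *Mlana* and -0.39 for *Slc24a5*, and -0.04 for *Tyrp1*. It was positive beyond counting error for 5 of the 6 stem-cell-enriched genes, such as *Sept4* with 0.88. It was also positive beyond counting error for 12 of 16 immediate early genes, which respond to handling and growth signals, for 17 of 20 ribosomal protein genes, with a median of 0.10, and for 7 of 16 interferon and antigen presentation genes, with 0 intervals below 0 in these 3 lists. *Fosb* was at 75.7 CPM against 95.8 CPM in cycling and at 66.8 CPM against 177 CPM in non-cycling cells, and *Atf3* at 165 CPM against 201 CPM and 155 CPM against 374 CPM. *Ccnd1* changed side, with log2 ratios of -0.71 inside and 0.28 outside the cycle. These differences compare cells of 1 library and were not tested over animals.

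Set beside *Oca2*+ non-cycling cells, *Oca2*+ cycling cells had a lower share of pigment transcripts among their thinned UMIs. Before thinning, the median depth was 37027 UMIs in *Oca2*+ cycling and 25915 UMIs in *Oca2*+ non-cycling cells. Whole-cell UMIs of the pigment genes were not compared, so a lower amount per cell was not shown. For *Dct*, which is outside the list, the whole-cell medians were 346 UMIs in cycling and 321 UMIs in non-cycling *Oca2*+ cells. Of 3185 genes, 9.14% were at least 1.5-fold higher and 4.18% at least 1.5-fold lower in the cycling cells, which share their *Oca2*+ cycling cells with the first comparison. The pigment genes were lower for 31 of 34, with a median of -0.41 and 7 of 21 at least 1.5-fold lower. Of all 11932 genes with UMIs in both groups, 6320 were lower. *Trpm1* was at 2210 CPM in *Oca2*+ non-cycling cells (log2 ratio -0.68, -0.75 to -0.60), *Pmel* at 8893 CPM (-0.56) and *Tyr* at 1211 CPM (-0.63), whereas *Kit* differed by 0.02 (-0.12 to 0.15). By summed pigment genes the groups ran in the order *Oca2*- cycling, *Oca2*- non-cycling, *Oca2*+ cycling and *Oca2*+ non-cycling cells, at 16496, 19692, 26174 and 36048 CPM of pigment genes. This order is one of shares only, since depth differed for *Oca2*- cells too, with medians of 35622 UMIs in cycling and 18411 UMIs in non-cycling cells. *Oca2* itself was at 176 CPM in *Oca2*+ non-cycling cells, as against 80.9 CPM, and at least 1 UMI was required in both.

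Mature bulb melanocytes differed far more. Of 3287 bulb cells past the same filter, 54 were cycling by the same limit (1.64%, 1.24 to 2.14), and 46 of these carried *Oca2* (85.2%, 72.9 to 93.4). Of 3547 genes, 33.5% were at least 1.5-fold higher and 32.2% lower in *Oca2*+ cycling cells of early anagen than in the 3182 *Oca2*+ bulb cells, with a median log2 ratio of 0.46 over all genes with UMIs in both. Pigment genes had a median of -0.95 in the same comparison and stem-cell-enriched genes of 5.79, the latter a description only, since the study's comparison that gave those 6 genes used bulb melanocytes. One of the 6, *Cd9*, was at 518 CPM against 8.93 CPM. *Kit* was at 496 CPM against 107 CPM and *Mitf* at 617 CPM against 332 CPM. *Trpm1* was at 4273 CPM and *Pmel* at 15473 CPM in the bulb. In the 46 cycling *Oca2*+ bulb cells, pigment genes came to 52043 CPM (51403 to 52689) and G2/M genes to 7902 CPM (7648 to 8162), so cells with both programs had more pigment transcripts in the bulb than the 26174 CPM in early anagen, in libraries of different kit versions and mouse ages. The telogen condition of the study was not analysed here.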

How the data were processed

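Single-cell libraries of 2 conditions, each from pooled mice, were used. Per the labels and methods, the authors processed the reads with Cell Ranger 6.0.1 against mm10 (GRCm38) and deposited UMI counts per gene and barcode, as raw counts with no normalization. The libraries held 116800173 (early anagen) and 58161397 UMIs (bulb). The telogen condition was not analysed here.

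Cells were filtered as stated above and thinned without replacement to 10000 UMIs with a fixed seed (Python 3.11.15, numpy 2.4.6, scipy 1.17.1). Thinned counts were added up per group and scaled to the group's total (CPM). Log2 ratios have exact conditional binomial intervals, shares have Clopper-Pearson intervals, and differences of ratios have Poisson-based normal intervals, all at 95% and for counting error only. With 1 library per group no test was run, and *p* values are not given. Counts of genes past 1.5-fold among genes of at least 50 CPM serve as a background. A gene is taken as of at least 50 CPM where one or both of the groups compared reach that level. In splits by *Oca2* the counts include *Oca2* itself, which *Oca2*- cells lack by the selection. Phases were scored with scanpy 1.11.5 on thinned cells. Ratios were tested on simulated sums of independent counts, in which UMIs did not cluster by cell. How far such clustering widens the intervals was not tested. Thinning was checked to leave 10000 UMIs in each *Oca2*+ cycling cell.

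The selected cells and the gene lists were chosen with earlier results of these data known. The rule for named genes took list members and, past a minimum of 50 CPM, the 15 highest and 15 lowest log2 ratios, leaving out genes that are mitochondrial, encode ribosomal proteins, carry clone numbers or served the selection. A gene list's interval in the comparisons of settings runs from the median of its genes' lower bounds to the median of their upper bounds. Alternatives were other limits on UMIs, *Oca2*, cycling genes, mitochondrial share and keratins, no thinning, the mean of each cell's CPM, edgeR 4.0.16 TMM factors, a reduced total, phase weighting, another seed and 10 or 100 CPM as the minimum. The summed level of the Schwann cell markers is not reported here.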

Additional observations from a re-analysis of the deposited data

How the results depend on the processing

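The median log2 ratios of pigment genes (0.35 to 0.75), stem-cell-enriched genes (-0.52 to -0.15) and WNT genes (0.13 to 0.82) kept their direction under every alternative run. So did that of the 5 genes led by *Apod* (-1.60 to -1.01, and -1.78 at 100 CPM, where only *Apod* was left). The difference inside minus outside the cycle (-0.29 to -0.05) kept its direction as well. The medians of S-phase genes (-0.28 to 0.04) and G2/M genes (-0.48 to 0.08) did not. S-phase genes were above 0 with both calls made after thinning (0.02), with phase weighting (0.04) and in cells scored in S or G2/M (0.03), and G2/M genes with at least 5 *Mki67* and *Top2a* UMIs (0.02), under 3% mitochondrial UMIs (0.08), with phase weighting (0.01) and in cells scored in S or G2/M (0.05). The alternatives of S or G2/M cells only and of leaving out the cell of each group with most UMIs of a gene were chosen after seeing the data. The cause was not tested.

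With both calls after thinning, 42 *Oca2*+ and 687 *Oca2*- cells remained, the share with *Oca2* was 5.76%, the G2/M median -0.48, and 174 genes were 1.5-fold higher and 119 lower, against 105 and 43. Requiring 2 *Oca2* UMIs gave 8.60%, 178 and 100. A limit of 3% mitochondrial UMIs gave 9.26%, 180 and 112, and *Ncapg2* changed side, to 0.013. Without any *Krt10* or *Krt14* UMI the counts were 161 and 83, and with the reduced total 155 and 77 of 4043 genes in place of 3109. At 10 CPM they were 473 and 389, and at 100 CPM 58 and 10. Of the 5 genes led by *Apod*, only *Apod* itself was left at 100 CPM, with a ratio of -1.78. With TMM factors 85 genes were higher and 56 lower, 60.28% of the calls being higher against 70.95%. At 100 CPM no WNT gene was left. Over 145 named or listed genes, 2382 of 2619 values lay within the counting interval. With 136 cells, genes under about 50 CPM had wide intervals. No paired analysis was possible because each condition was 1 library.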

Other observations

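Values that the comparisons do not use include the single cells at the extremes of the *Oca2*+ cycling group. The cell with most *Oca2* transcripts held 23 UMIs, and the highest sum of *Mki67* and *Top2a* was 148 UMIs. Among the 850 *Oca2*- cycling cells, the highest sum of pigment genes, 438 of 10000 UMIs, was above that of all *Oca2*+ cycling cells (436). Of the 77 cells with epidermal keratins, 35 held at least 2 UMIs of *Mki67* and *Top2a* (45.5%, 34.1 to 57.2), and after thinning *Pmel* was found in 42.9% (31.6 to 54.7) and *Tyrp1* in 49.4% (37.8 to 61.0) of them.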
